A study of Rattus norvegicus with 6 samples.

Results

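The genes described here build and control the machinery that pulls chromosomes apart and divides the cell. They were chosen as a list of 60 named genes of the kinetochore, the spindle checkpoint, the spindle and cytokinesis. The choice was by name and not by a threshold on measured values, but earlier results of these data were known when it was made. Of the 60, 59 were found among the 18237 genes of the count files. Cenpp was not analysed here. RNA sequencing had been done on cultured rat heart cells. Their label, NRVM, commonly stands for ventricular myocytes of newborn rats, but the culture notes give embryonic myocardium as the source. Of the 6 libraries, 3 are labelled siMt2 (n = 3), from cells given an siRNA against Mt2, which encodes the metal-binding protein metallothionein 2. They were set against 3 libraries labelled siNT (n = 3), from cells given a control siRNA. Both groups were grown in DMEM with fetal bovine serum and antibiotics, and the notes on extraction, the same for both groups, mention isobutylmethylxanthine, insulin and dexamethasone but do not tie them to any culture. The labels give no strain, age, siRNA sequence or dose, and no source states whether the replicates are independent cultures. The p-values therefore describe library-to-library spread alone, and that spread may be technical.

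As background, a kinetochore is assembled on the centromere of each chromosome when a cell divides. Its inner part sits on nucleosomes that carry the histone variant CENP-A, and its outer part, the network of the KNL1, MIS12 and NDC80 complexes, grips spindle microtubules. The spindle checkpoint holds back the anaphase-promoting complex (APC/C), a ubiquitin ligase, until all kinetochores are attached; separase then opens the cohesin rings and the chromosomes part. Many of these genes are transcribed mainly in the G2 and M phases of cycling cells, and heart muscle cells largely leave the cell cycle soon after birth, whereas fibroblasts and smooth muscle cells from the heart can go on dividing in culture.

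Gene counts summed to between 2859759 (siMt2 replicate 3) and 6817777 per library. The targeted transcript, listed in the files as Mt2a, was at 70.4, 87.0 and 141 CPM in the libraries labelled siMt2, against 90.4, 169 and 93.0 CPM in the siNT libraries, where CPM is counts per 1000000 counts of a library, with library sizes scaled by edgeR's TMM method. The groups overlapped (log2 fold change -0.28, 95% interval -1.42 to 0.87, edgeR adjusted p = 0.631), so the knockdown was not detectable in the transcript and the groups are named by their labels. The defining cardiac muscle markers were near 0: Myh6 had 9 counts over all 6 libraries, Actc1 4, Tnni3 3 and Myl7 6. The 9 muscle markers measured, of 10 listed, summed to 51.1 to 63.5 CPM in the libraries labelled siMt2 and 29.2 to 32.0 CPM in the siNT libraries, nearly all of it Tnnt2. Smooth muscle markers (7 of 7 measured) summed to 3907 to 4030 CPM in the libraries labelled siMt2 and 2024 to 2062 CPM in the siNT libraries. Of these, Myh11, Acta2, Tagln, Cnn1 and Des were higher and Myocd lower, and Smtn did not pass. Fibroblast markers (9 of 10 measured) summed to 19073 to 22706 CPM in the libraries labelled siMt2 and 18699 to 18780 CPM in the siNT libraries. Of the 8 fibroblast markers tested, 5 rose: Lum (7.0-fold) and Dcn (5.31-fold), both averaging under 4 CPM in either group, and Thy1 (1.75-fold), Col1a1 (1.66-fold) and Vim (1.60-fold). Lum and Dcn had at most 5 counts in any siNT library and passed the filter on low counts only through the libraries labelled siMt2. Fn1 fell (0.836-fold), and Col1a2 and Col3a1 did not pass. Pdgfra, too low for the test, had 2 counts over all 6 libraries. The part of these cell type markers in the results below was not tested. Endothelial markers (3 of 6 measured) summed to at most 8.78 CPM in a library labelled siMt2 and 7.18 CPM in a siNT library. Leukocyte markers (4 of 6 measured) summed to 14.1 to 17.2 CPM in the libraries labelled siMt2 and 22.6 to 27.2 CPM in the siNT libraries. Nearly all of the leukocyte sum was Cd14, and over all 6 libraries Ptprc had 2 counts, Cd68 17 and Csf1r 31.

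The division genes were higher as a body in the libraries labelled siMt2. Of the 59 genes, 51 rose and 2 fell at an edgeR adjusted p under 0.05, and 6 did not pass. Over all 11726 genes tested, 25.8% rose and 25.1% fell by the same rule. With a log2 fold change over 1 asked for as well, 40 of the 59 rose, against 6.36% of all genes, and 0 fell, against 2.6% of all genes (0 also at an unadjusted p under 0.05, and 0 in DESeq2 and limma-voom). The median log2 fold change was 1.39 over the 59 genes and 0.000434 over all genes tested. Since earlier results of these data were known when the list was chosen, these figures describe the list and were not tested. In 52 genes all 3 libraries labelled siMt2 lay above all 3 siNT libraries, in 2 they lay below, and in 5 the groups overlapped; over all genes these orders were found in 28.9% and 28.7%. In bulk RNA, more dividing cells and more of the transcript per dividing cell cannot be told apart.

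**Figure D1:**
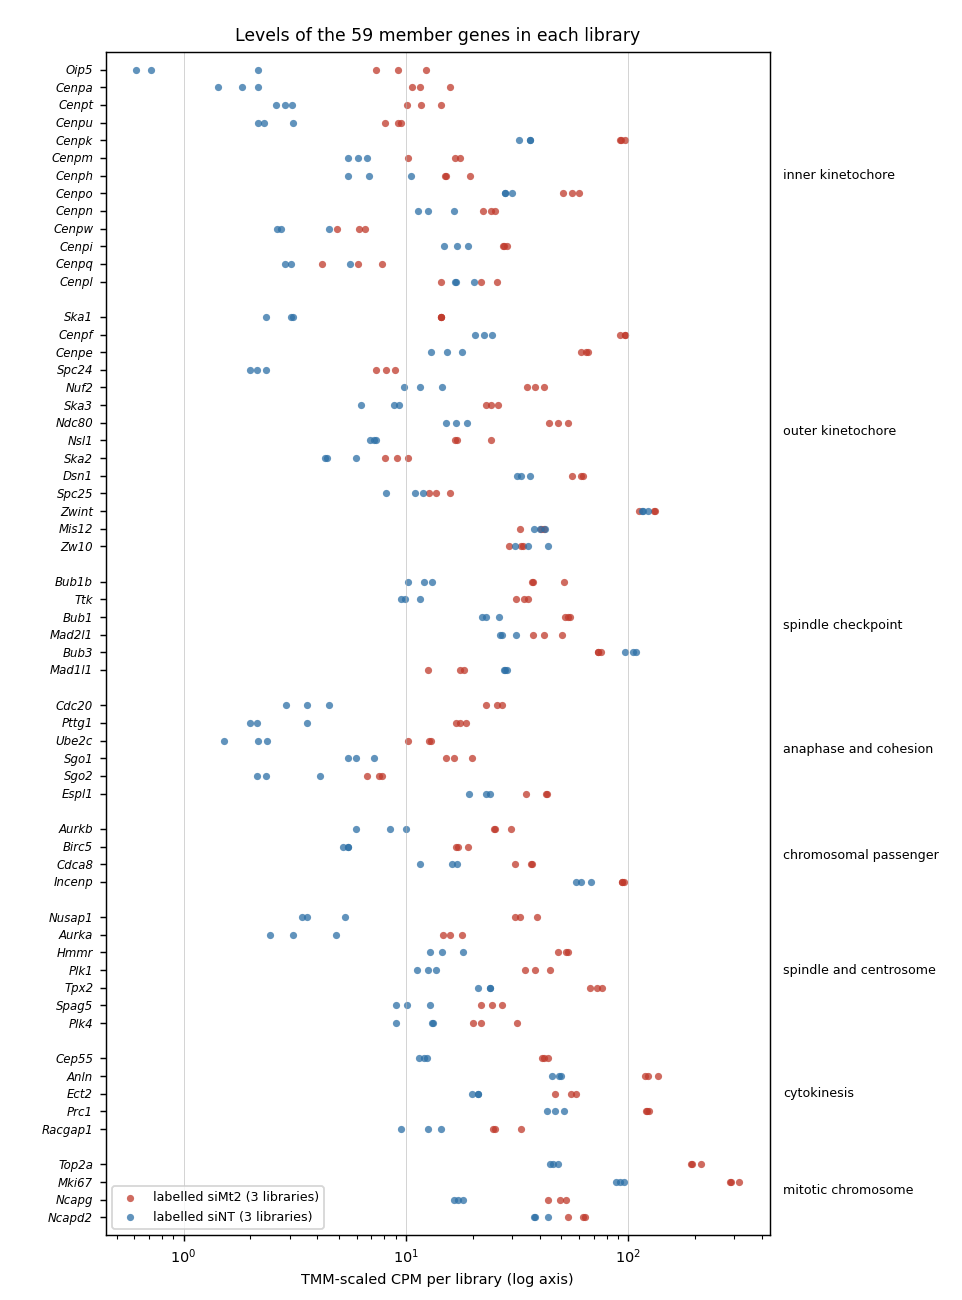
TMM-scaled CPM (log axis) of each of the 59 genes in each library, 1 point per library, red for the 3 libraries labelled siMt2 and blue for the 3 siNT libraries, ordered within each structure by fold change. Red points lie to the right of blue points in 52 rows, to the left in the rows of Bub3 and Mad1l1, and among them in those of Cenpl, Cenpq, Zwint, Mis12 and Zw10.

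Together the 59 transcripts made up 0.267%, 0.268% and 0.275% of the counts of the libraries labelled siMt2, against 0.123%, 0.120% and 0.123% of those of the siNT libraries. Their summed level was 2691 ± 59.1 CPM in the libraries labelled siMt2 and 1223 ± 19.2 CPM in the siNT libraries (SD, n = 3 each). All 3 libraries labelled siMt2 were above all 3 siNT libraries, and siMt2 replicate 3, the shallowest, was the highest at 2758 CPM. All 59 genes passed the filter on low counts, but Cenpa, Oip5, Spc24, Ube2c and Pttg1 reached its level in fewer than 3 siNT libraries and so passed through the group in which they were high. All of them are among the 40 members higher by more than 1 on the log2 scale. Of the other 54, 46 rose, 2 fell and 6 did not pass, and with no filter at all 51 of 59 still rose. In all, the spans of 15 members overlap that of another protein-coding gene in the RefSeq annotation of a later rat assembly (GRCr8). Overlap of exons was not examined, and the sources used here do not say whether reads were counted by strand. Reads of neighbours may therefore be counted in them: Cenpk, Cenpn, Cenpo, Cenpt, Cenpu, Spc25, Nsl1, Ska2, Ska3, Sgo2, Plk1, Aurka, Nusap1, Anln and Ncapg.

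**Figure D2:**
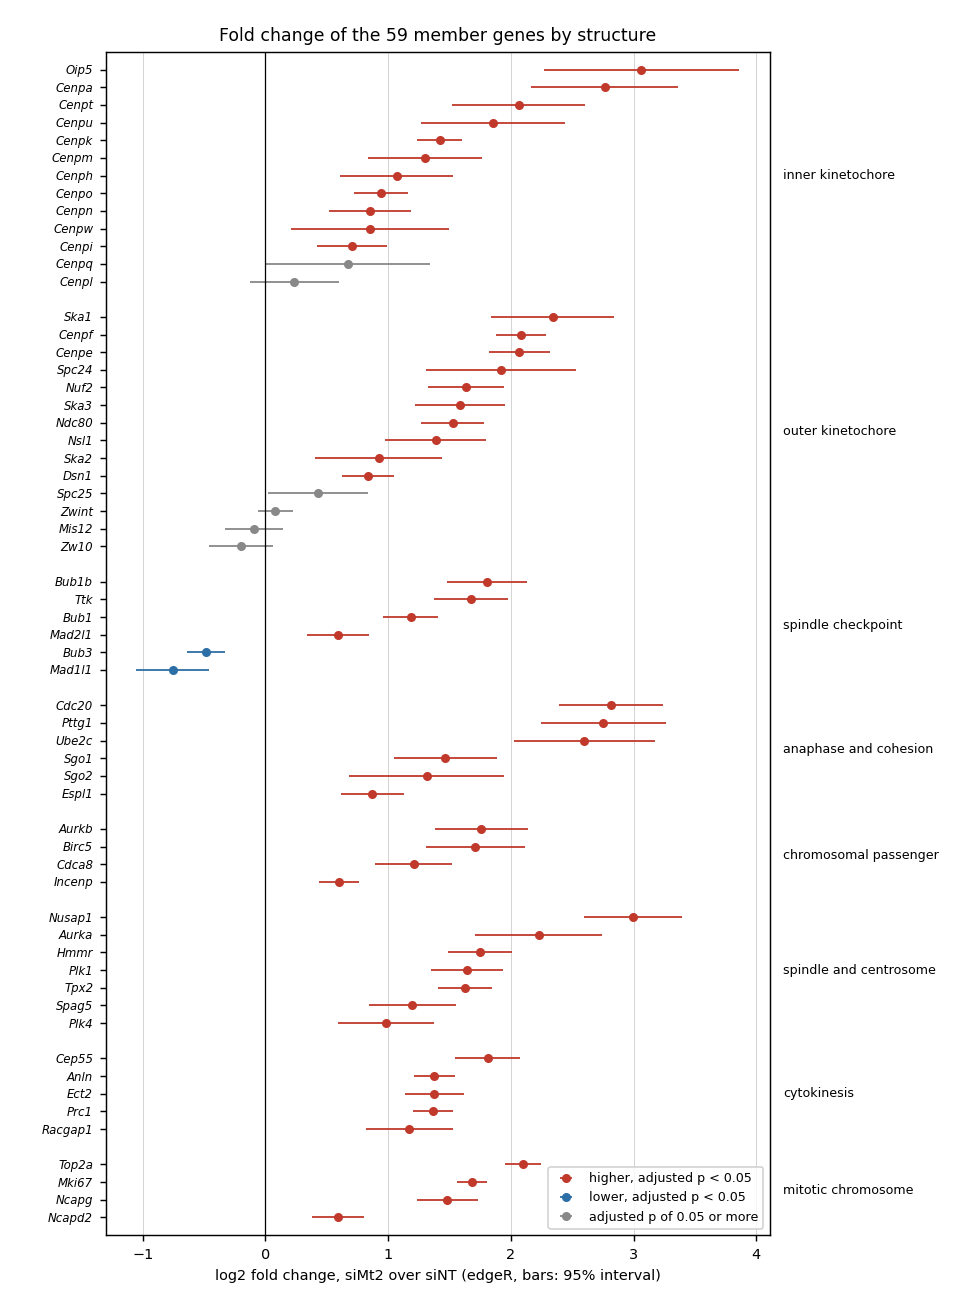
Log2 fold change of each of the 59 genes, libraries labelled siMt2 over siNT libraries, with its 95% interval from edgeR's quasi-likelihood fit, grouped by structure. Red marks the 51 genes that rose, blue Bub3 and Mad1l1, which fell, and grey the 6 that did not pass; the largest value is that of Oip5 at 3.06 and the lowest that of Mad1l1 at -0.76.

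At the inner kinetochore 11 of 13 genes rose, with the largest folds in Oip5 and Cenpa. Both passed the filter on low counts only through the libraries labelled siMt2, in which they were high. Summed over the 13 genes the level was 299 to 319 CPM in the libraries labelled siMt2 and 133 to 149 CPM in the siNT libraries. Cenpa, the histone H3 variant that marks the centromere, was at 10.6, 15.8 and 11.6 CPM in the libraries labelled siMt2, against 2.16, 1.43 and 1.83 CPM in the siNT libraries (log2 fold change 2.76, SE 0.29, edgeR adjusted p = 1.16e-07). Oip5, which encodes MIS18B, a subunit of the complex that licenses new CENP-A loading, was at 12.4, 9.19 and 7.37 CPM in the libraries labelled siMt2, against 2.16, 0.715 and 0.611 CPM in the siNT libraries (log2 fold change 3.06, SE 0.38, edgeR adjusted p = 1.26e-06). Every library labelled siMt2 stood above every siNT library in both genes, although their siNT counts were as low as 6 and 3. Without siNT replicate 1, the highest of its group, the log2 fold change of Oip5 was 3.88.

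The other inner kinetochore proteins form the constitutive centromere network, in which small complexes bridge CENP-A chromatin and the outer kinetochore. Cenpk, of the CENP-H, I, K and M complex, was at 92.7, 91.7 and 96.9 CPM in the libraries labelled siMt2, against 36.0, 32.4 and 36.1 CPM in the siNT libraries (log2 fold change 1.42, SE 0.09, edgeR adjusted p = 4.89e-11). Its 3 complex partners rose as well, Cenpm by 1.30, Cenph by 1.07 and Cenpi by 0.71 on the log2 scale. Cenpo, of the CENP-O, P, Q, U and R complex, was at 50.8, 55.9 and 60.0 CPM in the libraries labelled siMt2, against 30.1, 27.9 and 28.0 CPM in the siNT libraries (log2 fold change 0.94, SE 0.11, edgeR adjusted p = 3.08e-07). In Cenpk and Cenpo the groups lay well apart, with replicates of a group close together.

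Cenpu, the partner of CENP-Q that recruits the kinase PLK1, rose by 1.85 on the log2 scale, and Cenpt, a DNA-binding anchor for the NDC80 complex, by 2.06. Cenpw, which pairs with CENP-T, had a log2 fold change of 0.85 and the weakest call of all members (edgeR adjusted p = 0.027); it missed the threshold without siMt2 replicate 1 (0.121) or 2 (0.0659), without siNT replicate 2 (0.0925) or 3 (0.113), and in DESeq2 (0.0864). Cenpn, whose protein reads the CENP-A nucleosome, rose by 0.85.

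The 2 inner kinetochore genes that did not pass were Cenpl and Cenpq. Cenpl, the partner of CENP-N, was at 21.7, 25.7 and 14.4 CPM in the libraries labelled siMt2, against 20.2, 16.7 and 16.8 CPM in the siNT libraries (log2 fold change 0.24, 95% interval -0.12 to 0.60, edgeR adjusted p = 0.268). Cenpq was at 6.11, 7.78 and 4.21 CPM in the libraries labelled siMt2, against 5.58, 2.86 and 3.06 CPM in the siNT libraries (log2 fold change 0.67, 95% interval 0.00 to 1.34, edgeR adjusted p = 0.0884). In both, siMt2 replicate 3 was the lowest of its group and lay below the highest siNT library, and without it both passed (log2 fold change 0.39 and 0.83, edgeR adjusted p = 0.0320 and 0.0316). Cenpq also passed without siNT replicate 1, its highest siNT library (1.04, edgeR adjusted p = 0.0280).

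At the outer kinetochore 10 of 14 genes rose and 4 did not pass. Their summed level was 576 to 615 CPM in the libraries labelled siMt2 and 321 to 339 CPM in the siNT libraries. The large corona proteins led by test. Cenpf, a coiled-coil protein of the nuclear matrix and kinetochore, was at 91.5, 96.4 and 96.5 CPM in the libraries labelled siMt2, against 20.5, 24.3 and 22.5 CPM in the siNT libraries (log2 fold change 2.08, SE 0.10, edgeR adjusted p = 5.77e-13). Cenpe, a kinesin motor that carries chromosomes to the spindle equator, was at 66.1, 61.3 and 64.2 CPM in the libraries labelled siMt2, against 13.0, 17.9 and 15.3 CPM in the siNT libraries (log2 fold change 2.07, SE 0.12, edgeR adjusted p = 1.63e-11). The gap between the groups was many times the spread within either in both genes.

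The NDC80 complex, a rod of 4 proteins that binds the microtubule, was higher in 3 of its 4 transcripts. Ndc80 was at 44.1, 48.6 and 53.7 CPM in the libraries labelled siMt2, against 16.7, 18.8 and 15.1 CPM in the siNT libraries (log2 fold change 1.53, SE 0.12, edgeR adjusted p = 3.25e-09). Nuf2, which pairs with NDC80 at the microtubule end of the rod, was at 34.9, 37.9 and 41.8 CPM in the libraries labelled siMt2, against 11.5, 9.77 and 14.5 CPM in the siNT libraries (log2 fold change 1.63, SE 0.15, edgeR adjusted p = 1.57e-08). Spc24, at the other end, rose by 1.92, with siNT counts of 9 to 13 per library, and passed the filter only through the libraries labelled siMt2. Spc25, the partner of SPC24, was at 13.7, 12.7 and 15.8 CPM in the libraries labelled siMt2, against 8.10, 11 and 11.9 CPM in the siNT libraries (log2 fold change 0.43, 95% interval 0.02 to 0.83, edgeR adjusted p = 0.0727). All 3 Spc25 values labelled siMt2 were above the siNT values, but the gap was small beside the spread within the groups.

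The MIS12 complex, which links the NDC80 rod to the inner kinetochore, was uneven too. Nsl1 rose by 1.39 and Dsn1 by 0.83 on the log2 scale, whereas Mis12 was at 32.6, 41.7 and 40.4 CPM in the libraries labelled siMt2, against 37.8, 40.3 and 42.2 CPM in the siNT libraries (log2 fold change -0.09, 95% interval -0.33 to 0.14, edgeR adjusted p = 0.521). Mis12 values of the groups lay among each other, and the interval leaves out a change as large as that of Dsn1. Zwint, the ZW10 interactor that binds KNL1, was at 130.4, 112 and 131 CPM in the libraries labelled siMt2, against 116, 122 and 116 CPM in the siNT libraries (log2 fold change 0.08, 95% interval -0.06 to 0.22, edgeR adjusted p = 0.341). Zw10, a subunit of the complex that brings dynein to unattached kinetochores and also acts in vesicle transport, was at 33.5, 33.0 and 29.1 CPM in the libraries labelled siMt2, against 43.8, 31.0 and 35.4 CPM in the siNT libraries (log2 fold change -0.20, 95% interval -0.46 to 0.06, edgeR adjusted p = 0.199). For Zw10 the groups overlapped, with siNT replicate 1 the highest library.

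The SKA complex, which follows shrinking microtubule ends, rose in all 3 transcripts. Ska1 had the same level, 14.4 CPM, in each library labelled siMt2, against 2.34, 3.10 and 3.06 CPM in the siNT libraries (log2 fold change 2.34, SE 0.24, edgeR adjusted p = 8.28e-08). Ska3 rose by 1.59 and Ska2 by 0.92 on the log2 scale.

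Among the spindle checkpoint genes the kinases and BUBR1 rose while 2 genes of proteins that work with them fell. Over all 6 genes the summed level was 255 to 274 CPM in the libraries labelled siMt2 and 200.4 to 210.1 CPM in the siNT libraries. Bub1, a kinase that sits on KNL1, was at 53.7, 54.7 and 52.0 CPM in the libraries labelled siMt2, against 22.0, 26.2 and 22.9 CPM in the siNT libraries (log2 fold change 1.18, SE 0.11, edgeR adjusted p = 1.46e-08). Bub1b, which encodes BUBR1, part of the complex that inhibits the APC/C, was at 37.4, 37.0 and 51.6 CPM in the libraries labelled siMt2, against 10.3, 13.1 and 12.1 CPM in the siNT libraries (log2 fold change 1.81, SE 0.15, edgeR adjusted p = 6.38e-09). Ttk, which encodes MPS1, the kinase that starts checkpoint signalling, was at 31.4, 35.4 and 34.0 CPM in the libraries labelled siMt2, against 9.90, 9.53 and 11.6 CPM in the siNT libraries (log2 fold change 1.68, SE 0.14, edgeR adjusted p = 7.03e-09). In all 3 genes the groups were far apart, and in Bub1b siMt2 replicate 3 was the highest library.

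The transcripts that fell encode BUB3, which carries BUB1 and BUBR1 to the kinetochore, and MAD1, which presents MAD2 there. Bub3 was at 75.7, 73.3 and 73.0 CPM in the libraries labelled siMt2, against 106, 96.5 and 108 CPM in the siNT libraries (log2 fold change -0.48, SE 0.07, edgeR adjusted p = 1.44e-05). Mad1l1 was at 18.2, 17.4 and 12.6 CPM in the libraries labelled siMt2, against 27.5, 28.6 and 28.0 CPM in the siNT libraries (log2 fold change -0.76, SE 0.14, edgeR adjusted p = 0.000173). Every library labelled siMt2 lay below every siNT library in both genes, and siMt2 replicate 3 was the lowest for Mad1l1. Mad2l1, the gene of MAD2, rose to 41.9, 37.5 and 50.5 CPM in the libraries labelled siMt2, against 31.3, 26.4 and 27.0 CPM in the siNT libraries (log2 fold change 0.59, SE 0.12, edgeR adjusted p = 0.000381).

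All 6 genes that act at anaphase onset or protect cohesion rose, with the largest folds in Cdc20, Pttg1 and Ube2c. Of these, Pttg1 and Ube2c passed the filter on low counts only through the libraries labelled siMt2. Their levels summed to 108 to 128 CPM in the libraries labelled siMt2 and 36.5 to 41.8 CPM in the siNT libraries. Cdc20, the activator that the checkpoint inhibits, was at 25.8, 27.1 and 22.8 CPM in the libraries labelled siMt2, against 3.60, 4.53 and 2.90 CPM in the siNT libraries (log2 fold change 2.82, SE 0.20, edgeR adjusted p = 4.50e-10). Pttg1, which encodes securin, the inhibitor of separase, was at 16.9, 17.4 and 18.6 CPM in the libraries labelled siMt2, against 3.60, 2.14 and 1.99 CPM in the siNT libraries (log2 fold change 2.75, SE 0.25, edgeR adjusted p = 1.16e-08). Ube2c, the ubiquitin-conjugating enzyme that works with the APC/C, was at 13.0, 12.7 and 10.2 CPM in the libraries labelled siMt2, against 2.16, 2.38 and 1.53 CPM in the siNT libraries (log2 fold change 2.60, SE 0.28, edgeR adjusted p = 1.51e-07). The siNT counts behind these values were 19 to 20 for Cdc20, 9 to 20 for Pttg1 and 10 to 12 for Ube2c, so the size of these folds is less precise than that of abundant genes.

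Sgo1, which encodes shugoshin, the guardian of centromeric cohesin, was at 16.4, 19.8 and 15.1 CPM in the libraries labelled siMt2, against 7.20, 5.96 and 5.50 CPM in the siNT libraries (log2 fold change 1.46, SE 0.20, edgeR adjusted p = 4.15e-06). Sgo2 rose by 1.31 and the separase gene Espl1 by 0.87 on the log2 scale. For Espl1 the change was smaller than for its inhibitor Pttg1, with 95% intervals of 0.61 to 1.13 and 2.24 to 3.27 that do not meet.

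The chromosomal passenger complex corrects faulty attachments through the kinase Aurora B, and all 4 of its transcripts rose. Their levels summed to 172 to 175 CPM in the libraries labelled siMt2 and 86.5 to 99.8 CPM in the siNT libraries. Aurkb, the kinase, was at 29.8, 25 and 25.3 CPM in the libraries labelled siMt2, against 8.46, 10.0 and 5.96 CPM in the siNT libraries (log2 fold change 1.76, SE 0.18, edgeR adjusted p = 9.98e-08). Birc5, which encodes survivin, was at 16.9, 19.1 and 17.2 CPM in the libraries labelled siMt2, against 5.22, 5.48 and 5.50 CPM in the siNT libraries (log2 fold change 1.71, SE 0.19, edgeR adjusted p = 3.50e-07). Cdca8, which encodes borealin, was at 31.0, 37.0 and 36.5 CPM in the libraries labelled siMt2, against 11.5, 16.2 and 17 CPM in the siNT libraries (log2 fold change 1.21, SE 0.15, edgeR adjusted p = 1.24e-06). The groups of these 3 genes did not overlap.

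Incenp, the scaffold that binds and activates Aurora B, was at 95.5, 93.6 and 93.4 CPM in the libraries labelled siMt2, against 61.4, 68.1 and 58.1 CPM in the siNT libraries (log2 fold change 0.60, SE 0.08, edgeR adjusted p = 2.91e-06). Its 6 values also fell into separate groups, but its 95% interval, 0.43 to 0.77, lay below those of Aurkb (1.38 to 2.14), Birc5 (1.30 to 2.11) and Cdca8 (0.89 to 1.52).

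All 7 spindle and centrosome genes rose. Their levels summed to 252 to 272 CPM in the libraries labelled siMt2 and 73.9 to 84.6 CPM in the siNT libraries. Nusap1, a microtubule-bundling protein of the spindle near chromosomes, was at 32.5, 30.9 and 39.0 CPM in the libraries labelled siMt2, against 3.42, 3.57 and 5.35 CPM in the siNT libraries (log2 fold change 3.00, SE 0.19, edgeR adjusted p = 7.17e-11). It had the second highest fold change of the 59 genes after Oip5, with siNT counts of 15 to 35. Tpx2, which activates Aurora A and seeds spindle microtubules, was at 67.5, 72.6 and 76.2 CPM in the libraries labelled siMt2, against 23.9, 21.2 and 24.0 CPM in the siNT libraries (log2 fold change 1.63, SE 0.10, edgeR adjusted p = 8.07e-11). Hmmr, a hyaluronan receptor that also acts at spindle poles, was at 52.7, 53.7 and 48.1 CPM in the libraries labelled siMt2, against 14.6, 12.9 and 18.0 CPM in the siNT libraries (log2 fold change 1.75, SE 0.13, edgeR adjusted p = 4.92e-10). Plk1, the Polo kinase that acts from mitotic entry to cytokinesis, was at 38.3, 44.5 and 34.4 CPM in the libraries labelled siMt2, against 13.7, 11.2 and 12.5 CPM in the siNT libraries (log2 fold change 1.64, SE 0.14, edgeR adjusted p = 5.98e-09). The groups did not overlap in any of these 4 genes.

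Aurka, the kinase of spindle poles, rose by 2.23 on the log2 scale, the spindle protein gene Spag5 by 1.20, and Plk4, the kinase that starts centriole duplication, by 0.98. For Plk4 the highest library was siMt2 replicate 3, at 31.6 CPM, against 21.7 and 20.03 CPM in the other libraries labelled siMt2 and 13.1, 9.05 and 13.3 CPM in the siNT libraries.

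All 5 cytokinesis genes rose. They summed to 364 to 378 CPM in the libraries labelled siMt2 and 132 to 149 CPM in the siNT libraries. Anln, which encodes the actin- and septin-binding protein anillin, was at 123, 119 and 135 CPM in the libraries labelled siMt2, against 49.0, 45.3 and 49.8 CPM in the siNT libraries (log2 fold change 1.38, SE 0.08, edgeR adjusted p = 1.53e-11). Prc1, which bundles the microtubules of the central spindle, was at 124, 122 and 121 CPM in the libraries labelled siMt2, against 46.6, 43.1 and 51.5 CPM in the siNT libraries (log2 fold change 1.37, SE 0.08, edgeR adjusted p = 1.86e-11). Ect2, the exchange factor that activates RhoA at the cleavage site, was at 58.5, 46.7 and 55.5 CPM in the libraries labelled siMt2, against 21.1, 19.8 and 21.1 CPM in the siNT libraries (log2 fold change 1.38, SE 0.12, edgeR adjusted p = 4.87e-09). Their log2 fold changes differed by less than the SE of any of them.

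Racgap1, a subunit of centralspindlin that recruits ECT2, rose by 1.17 on the log2 scale. Cep55, which brings the final cutting machinery to the midbody, was at 41.9, 43.6 and 41.1 CPM in the libraries labelled siMt2, against 12.4, 11.4 and 12.1 CPM in the siNT libraries (log2 fold change 1.81, SE 0.13, edgeR adjusted p = 2.88e-10). Its interval, 1.55 to 2.08, did not meet those of Anln (1.21 to 1.54) and Prc1 (1.20 to 1.53).

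The 4 genes of mitotic chromosome structure rose, and the 2 most abundant had the smallest adjusted p of all members. Together they summed to 585 to 640.3 CPM in the libraries labelled siMt2 and 187 to 201 CPM in the siNT libraries. Top2a, the topoisomerase that untangles sister DNA, was at 192, 193 and 212 CPM in the libraries labelled siMt2, against 45.7, 44.3 and 48.1 CPM in the siNT libraries (log2 fold change 2.10, SE 0.07, edgeR adjusted p = 2.20e-15). Mki67, whose protein Ki-67 coats mitotic chromosomes and is the usual marker of cycling cells, was at 286, 291 and 316 CPM in the libraries labelled siMt2, against 95.6, 88.4 and 92.3 CPM in the siNT libraries (log2 fold change 1.68, SE 0.06, edgeR adjusted p = 4.63e-15). Both were tight within groups.

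Condensin I, the ring complex that compacts chromosomes, contributed 2 members. Ncapg was at 43.7, 52.3 and 49.5 CPM in the libraries labelled siMt2, against 16.4, 17.2 and 18.0 CPM in the siNT libraries (log2 fold change 1.48, SE 0.12, edgeR adjusted p = 2.68e-09). Ncapd2 was at 63.6, 53.7 and 62.5 CPM in the libraries labelled siMt2, against 43.4, 37.6 and 38.2 CPM in the siNT libraries (log2 fold change 0.59, SE 0.10, edgeR adjusted p = 6.62e-05). The rise of Ncapd2 was the smaller, with a 95% interval of 0.38 to 0.81 against 1.23 to 1.73 for Ncapg.

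Proteins that bind each other in these structures did not all change in step in their transcripts. Ratios of partner transcripts within a library were set side by side for 6 pairs, chosen after the fold changes had been seen. A ratio of CPM values is not a ratio of molecules, since gene lengths differ, and only its difference between groups is read. The ratio of Spc25 to Spc24 was 1.68, 1.42 and 2.14 in the libraries labelled siMt2, against 3.46, 5.11 and 6.0 in the siNT libraries. That of Mis12 to Nsl1 was 1.96, 2.46 and 1.67 in the libraries labelled siMt2, against 5.25, 5.83 and 5.75 in the siNT libraries. In both pairs every library labelled siMt2 was below every siNT library.

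The ratio of Bub3 to Bub1 was 1.41, 1.34 and 1.41 in the libraries labelled siMt2, against 4.80, 3.68 and 4.73 in the siNT libraries. For Mad1l1 to Mad2l1 the ratio was 0.434, 0.465 and 0.25 in the libraries labelled siMt2, against 0.879, 1.08 and 1.03 in the siNT libraries. Incenp to Aurkb gave 3.20, 3.75 and 3.69 in the libraries labelled siMt2, against 7.26, 6.81 and 9.74 in the siNT libraries. These 3 ratios likewise did not overlap between the groups, and that of Bub3 to Bub1 varied little among the libraries labelled siMt2.

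Cenpl to Cenpn was the exception, at 0.861, 1.16 and 0.594 in the libraries labelled siMt2, against 1.60, 1.01 and 1.49 in the siNT libraries, where the groups overlapped. An exact permutation test (two-sided, 20 assignments) of the log2 ratios gave p = 0.1 for each of the other 5 pairs, the smallest that 3 against 3 libraries allow, and p = 0.2 for Cenpl to Cenpn (0.12 and 0.2 after Benjamini-Hochberg adjustment over the 6 pairs). Since the pairs were picked for their unlike fold changes, these values support nothing and the ratios stand as a description.

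**Figure D3:**
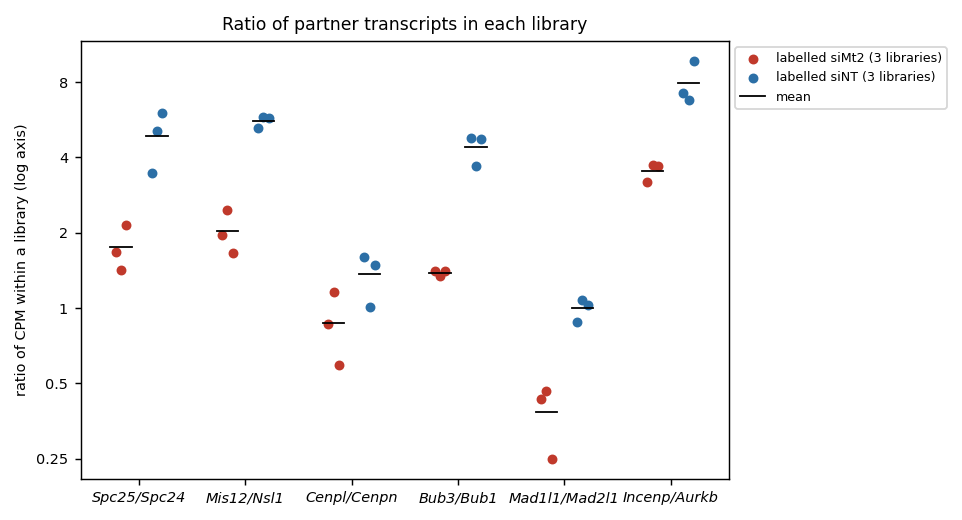
Ratio of the CPM values of 2 partner transcripts within each library (log axis), red for libraries labelled siMt2, blue for siNT libraries, with a black line at each group's mean. For 5 of the 6 pairs all 3 red points lie below all 3 blue points; the groups overlap for Cenpl/Cenpn.

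Other genes of the same machinery, on lists without these members, gave mixed counts. Of 16 other kinetochore genes tested, 7 rose (43.8%, against 25.8% of all genes tested) and 0 fell (against 25.1%) at an edgeR adjusted p under 0.05. The number lower was 0 also at an unadjusted p under 0.05 and in DESeq2 and limma-voom. Hjurp, the chaperone that deposits CENP-A together with the MIS18 complex, was at 30.4 ± 1.04 CPM in the libraries labelled siMt2 and 7.27 ± 1.76 CPM in the siNT libraries (SD, n = 3 each; log2 fold change 2.03, SE 0.17, edgeR adjusted p = 4.58e-09). Kntc1 and Zwilch, which form a complex with ZW10, rose by 0.77 and 0.45 on the log2 scale. All 3 had their siMt2 libraries above the siNT libraries. Of the genes with no call, Cenpc, the main link to the outer kinetochore, had a log2 fold change of 0.01 and Knl1 of 0.10.

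Of 6 further condensin genes 4 rose (66.7%, against 25.8% of all genes tested) and 0 fell (against 25.1%). The number lower was 0 also at an unadjusted p under 0.05 and in DESeq2 and limma-voom. Smc4 averaged 188 ± 4.78 CPM in the libraries labelled siMt2 and 97.1 ± 3.11 CPM in the siNT libraries (SD, n = 3 each; log2 fold change 0.94, SE 0.06, edgeR adjusted p = 4.82e-11). Ncaph rose by 1.34 and Ncapd3, of condensin II, by 0.62 on the log2 scale. Smc2, the partner of SMC4 in the ring, did not pass (log2 fold change 0.05, 95% interval -0.10 to 0.19, edgeR adjusted p = 0.602).

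Among 28 other spindle and cytokinesis genes, 16 were higher (57.1%, against 25.8% of all genes tested) and 6 lower (21.4%, against 25.1%) by the same test. The share that fell was near that of all genes, so the falls are described as single genes. The spindle kinesin Kif11, which pushes the poles apart, averaged 88.9 ± 9.83 CPM in the libraries labelled siMt2 and 25 ± 3.38 CPM in the siNT libraries (SD, n = 3 each; log2 fold change 1.82, SE 0.11, edgeR adjusted p = 4.94e-11). Tacc3, a microtubule-binding spindle protein, averaged 50.1 ± 5.34 CPM in the libraries labelled siMt2 and 10.1 ± 2.00 CPM in the siNT libraries (SD, n = 3 each; log2 fold change 2.32, SE 0.14, edgeR adjusted p = 4.97e-11), and Dlgap5, which stabilises kinetochore fibres, 54.4 ± 3.42 CPM in the libraries labelled siMt2 and 17.6 ± 2.62 CPM in the siNT libraries (SD, n = 3 each; log2 fold change 1.62, SE 0.12, edgeR adjusted p = 7.06e-10). Of the 6 that fell, the smallest adjusted p were those of Rock1 (log2 fold change -0.74, SE 0.07, edgeR adjusted p = 4.77e-08) and Rock2 (log2 fold change -0.48, SE 0.05, edgeR adjusted p = 5.32e-08), kinases activated by RhoA, while Rhoa itself rose (log2 fold change 0.13, SE 0.04, edgeR adjusted p = 0.0158).

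B-MYB, FOXM1 and the DREAM complex are known to control G2 and M genes, and of 17 genes of these factors and their partners 2 rose (11.8%, against 25.8% of all genes tested) and 4 fell (23.5%, against 25.1%). The other 11 did not pass, among them Lin9, Lin54, E2f4, Nfya, Nfyb and Nfyc. The share that fell was near that of all genes and the share that rose was lower, so single genes are described. Under upper quartile scaling 4 rose. Mybl2, which encodes B-MYB, averaged 49.0 ± 2.98 CPM in the libraries labelled siMt2 and 25.3 ± 2.73 CPM in the siNT libraries (SD, n = 3 each; log2 fold change 0.96, SE 0.11, edgeR adjusted p = 4.91e-07). Foxm1 averaged 23.3 ± 3.34 CPM in the libraries labelled siMt2 and 7.91 ± 2.06 CPM in the siNT libraries (SD, n = 3 each; log2 fold change 1.54, SE 0.19, edgeR adjusted p = 1.29e-06). The retinoblastoma gene Rb1 fell (log2 fold change -0.78, SE 0.10, edgeR adjusted p = 8.93e-07), as did its relative Rbl2, which encodes p130, a subunit of the repressor complex DREAM (log2 fold change -0.53, SE 0.09, edgeR adjusted p = 8.39e-05). Tfdp2 (log2 fold change -0.81) and Rbbp4 (-0.39) fell as well. The part of these factors in the changes of the members was not tested.

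DNA replication genes are the closest comparison, since they also mark cycling cells but act in S phase. Of 49 tested, 19 rose (38.8%, against 25.8% of all genes tested), 6 fell (12.2%, against 25.1%) and 24 did not pass. The median log2 fold change was 0.18. By more than 1 on the log2 scale 3 of the 49 were higher, a share near the 6.36% of all genes. The number that fell was 3 without siMt2 replicate 1 or without siNT replicate 2, and lay between 3 and 8 over all alternatives. Tk1, the thymidine kinase, averaged 25.5 ± 1.72 CPM in the libraries labelled siMt2 and 7.54 ± 1.59 CPM in the siNT libraries (SD, n = 3 each; log2 fold change 1.74, SE 0.17, edgeR adjusted p = 6.25e-08). Prim1, a primase subunit, rose by 0.65 and Mcm10 by 1.21 on the log2 scale, while Tyms, the thymidylate synthase, fell (log2 fold change -0.78, SE 0.18, edgeR adjusted p = 0.000942) and Prim2 fell too (log2 fold change -0.50, SE 0.13, edgeR adjusted p = 0.00411). The lists are described by their counts and medians, and the difference between them was not tested.

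**Figure D4:**
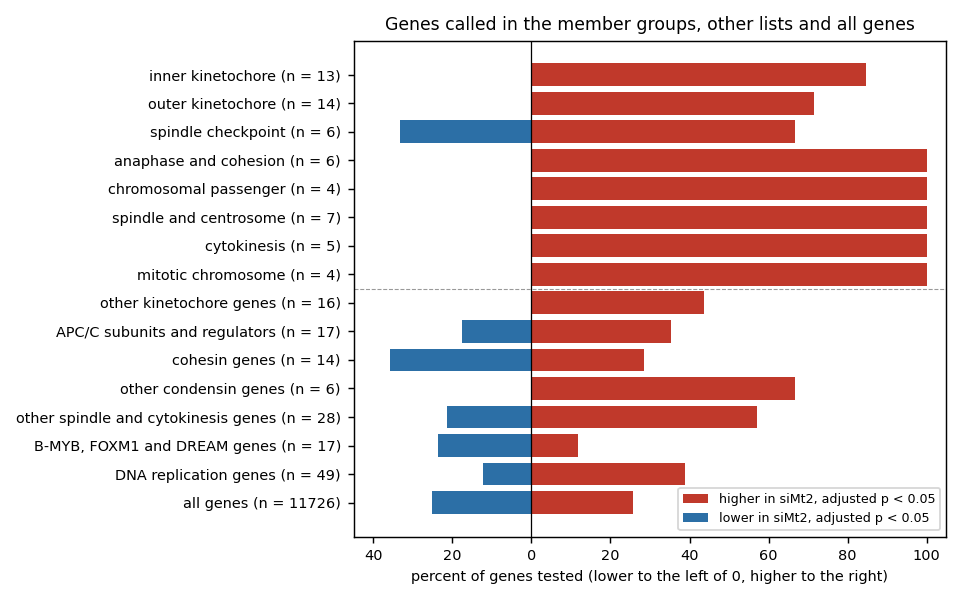
Percent of the genes tested that were higher (red, to the right of 0) or lower (blue, to the left of 0) in the libraries labelled siMt2 at an edgeR adjusted p under 0.05, for the 8 member structures above the dashed line and for other lists and all genes below it. In 5 of the structures all genes were higher, against 38.8% of DNA replication genes and 25.8% of all genes.

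The promoters of the members were described as well. A pair of short elements is known from human and mouse promoters of G2 and M genes: the cell cycle homology region (CHR), bound by DREAM and B-MYB complexes, with the core TTTGAA, and the CCAAT box, bound by NF-Y. Both were searched on both strands in the RefSeq promoters of assembly GRCr8, 250 bases before to 50 after the annotated start, which were matched for 50 of the 59 members; those without an entry were Aurkb, Cenpt, Incenp, Racgap1, Sgo2, Tpx2, Ube2c, Zw10 and Zwint. The core TTTGAA was found in 31 of the 50 (62.0%), against 18.1% of all 27457 promoters and 11.8% of the 8574 promoters of genes tested. CCAAT was found in 31 of the 50 as well (62.0%), against 37.7% of all promoters and 38.5% of those of genes tested. Both elements were in 21 members (42.0%), against 7.25% and 4.84%. In 2 member promoters a match of one element overlapped a match of the other. A match describes these letters and is no evidence of binding. The members were listed by name, and many are G2 and M genes, the class from which these elements are known. The shares over all members thus do not depend on the siMt2 and siNT values. Whether the elements had a part in the changes was not tested.

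The promoters of 6 members, chosen after their values were seen, are shown, 200 bases before to 30 after the start, in lower case with every match of either element, on either strand, in capitals. Nusap1 (chr3:127057095-127057324, plus strand), Cdc20 (chr5:137255770-137255999, minus strand) and Cenpa (chr6:31431523-31431752, minus strand) are the 3 members with the largest fold change that hold both elements, Plk1 (chr1:186147458-186147687, plus strand) is the Polo kinase, and Bub3 (chr1:195760332-195760561, plus strand) and Mad1l1 (chr12:19434582-19434811, plus strand) are the members that fell.
Nusap1: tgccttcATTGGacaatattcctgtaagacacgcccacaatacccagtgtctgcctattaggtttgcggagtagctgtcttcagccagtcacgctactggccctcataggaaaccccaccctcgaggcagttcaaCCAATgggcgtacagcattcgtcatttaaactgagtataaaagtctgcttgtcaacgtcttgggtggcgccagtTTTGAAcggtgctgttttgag
Cdc20: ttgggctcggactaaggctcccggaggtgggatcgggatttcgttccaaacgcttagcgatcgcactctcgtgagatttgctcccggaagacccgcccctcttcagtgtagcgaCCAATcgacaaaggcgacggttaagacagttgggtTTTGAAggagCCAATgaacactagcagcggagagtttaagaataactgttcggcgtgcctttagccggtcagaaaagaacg
Cenpa: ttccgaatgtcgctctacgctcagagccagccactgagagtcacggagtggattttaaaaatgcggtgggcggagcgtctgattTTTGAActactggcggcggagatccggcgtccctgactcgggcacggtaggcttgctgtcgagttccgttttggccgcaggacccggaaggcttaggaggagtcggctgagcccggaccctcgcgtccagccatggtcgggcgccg
Plk1: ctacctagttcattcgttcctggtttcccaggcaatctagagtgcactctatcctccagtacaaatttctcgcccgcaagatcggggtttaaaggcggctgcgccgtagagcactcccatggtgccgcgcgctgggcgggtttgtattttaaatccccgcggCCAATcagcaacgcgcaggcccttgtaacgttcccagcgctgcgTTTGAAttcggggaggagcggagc
Bub3: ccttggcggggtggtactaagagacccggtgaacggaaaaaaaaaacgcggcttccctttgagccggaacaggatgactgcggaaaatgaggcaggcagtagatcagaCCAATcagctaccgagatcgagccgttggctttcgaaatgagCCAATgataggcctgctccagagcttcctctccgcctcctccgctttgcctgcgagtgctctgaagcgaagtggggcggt
Mad1l1: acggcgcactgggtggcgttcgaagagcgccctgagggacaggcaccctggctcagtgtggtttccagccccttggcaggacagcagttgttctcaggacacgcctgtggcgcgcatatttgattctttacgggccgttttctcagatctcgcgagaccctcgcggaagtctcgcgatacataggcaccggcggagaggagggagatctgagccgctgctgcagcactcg

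In Nusap1 the core TTTGAA begins at base 10 after the start and in Plk1 at base 7, with CCAAT boxes before the start at -193 and -65 in Nusap1 and at -38 in Plk1. Cdc20 has the core at -51 with a CCAAT box on either side of it, at -86 and -41. Cenpa has it at -116, and its CCAAT boxes lie before the stretch shown, at -242 and -208. Bub3 holds CCAAT boxes at -92 and -50, and another before the stretch shown at -242, but no TTTGAA, and Mad1l1 holds neither.

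Matches of TTTGAA in the members lay close to the start. Within 50 bases of it on either side, 24 of 50 member promoters (48.0%) held the core, against 3.17% of promoters of genes tested. Of the 44 members with a promoter that rose, 30 held the core anywhere in the window, and of the 6 that fell or did not pass 1 did, Spc25. Among the 34 members higher by more than 1 on the log2 scale it was in 23 (67.6%), and among the 10 with a smaller rise in 7 (70.0%). By structure it was in all 4 mitotic chromosome genes, all 4 cytokinesis genes and both chromosomal passenger genes with a promoter, in 5 of 6 spindle genes and 3 of 4 anaphase genes, in 3 of 6 checkpoint genes, and in 5 of 12 genes of the inner and 5 of 12 of the outer kinetochore. These counts were not tested.

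**Figure D5:**
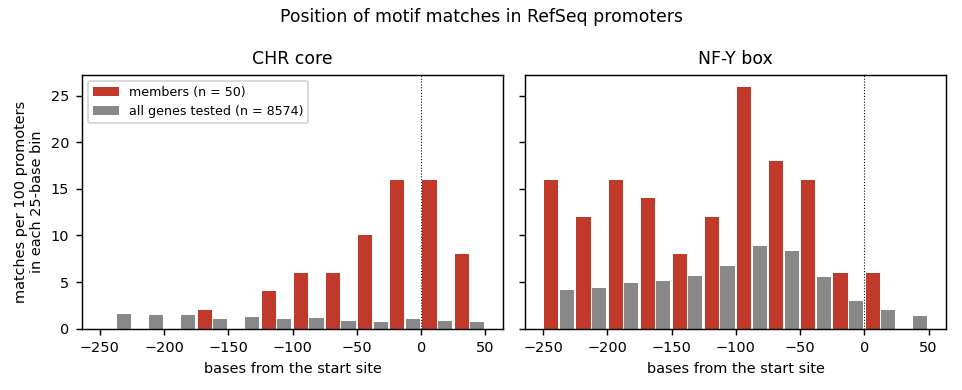
Matches per 100 promoters in each 25-base bin, by distance from the start site in bases (dotted line at 0), for the CHR core (left) and the NF-Y box CCAAT (right), red for the 50 members and grey for the 8574 genes tested. Member matches of the CHR core reach 16 per 100 promoters in the bins on either side of the start, where genes tested have 1.06 and 0.805.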

How the data were processed

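RNA of cultured rat cells was sequenced in 6 libraries, 3 labelled siMt2 and 3 siNT, as read from the sample titles. Per the submitters' processing notes, the build was rn6 and the tools were HISAT2 2.2.1 and Trimmomatic 0.40, together with featureCounts, DESeq2 and limma; their order and settings are not stated there. The authors deposited raw whole-number counts per gene, 1 file per library. In 25 rows (0.260% of counts) a spreadsheet had turned names into dates; they stayed in totals and tests. The members, lists and named genes were chosen with earlier results of these data known.

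The counts went into edgeR 4.0.16 (R 4.3.3): filterByExpr (minimum count 10), TMM scaling and the robust quasi-likelihood test (two-sided). P-values of the 11726 genes tested were adjusted together by Benjamini-Hochberg, and 0.05 was the threshold. Log2 fold changes are siMt2 over siNT. Values in every library are given for the 4 members of each structure with the smallest adjusted p and for all that fell or did not pass; others were named after their values were seen. A count of 3, the limit that a count of 0 allows, equals 0.440 to 1.05 CPM, and covers counting error only. Between same-group libraries the median squared difference, scaled by the expected count, was 1.57 to 2.28 times that of counting error alone, so none was taken as a repeat. The fit was tested on simulated counts in which 200 of 11561 genes changed, a far smaller share than the 50.9% called in the data. It recovered 64% of log2 changes of 0.5, 84% of 1, 94% of 2 and 100% of 3. Of its calls 7.1% were false, more than the threshold of 0.05 aims at. Alternatives were other scalings, filters, DESeq2 1.42.0, limma-voom (limma 3.58.1), a replicate block and each library left out. Promoters and overlaps came from RefSeq GRCr8, in which 59 members matched by symbol.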

Additional observations from a re-analysis of the deposited data

How the results depend on the processing

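The count of members that rose was 51 under every scaling, filter and test tried except DESeq2 (50, without Cenpw), and 50 to 53 with 1 library left out; 2 fell in every case. The count with a log2 fold change over 1 lay between 40 and 42 upward (40 to 42 with 1 library left out) and was 0 downward, and the median log2 fold change between 1.36 and 1.44 (the same with 1 library left out). Other genes of the pathway rose in 50 to 61 cases (50 to 57 with 1 library left out) and fell in 20 to 26 (21 to 24), against 58 and 24. Of 826 single values of members under an alternative, 817 kept direction and side of the threshold, 5 (all Cenpw) lost the call, 3 (Cenpl and Cenpq) gained it, and 1 changed sign: Mis12, not called, at 0.038 without siMt2 replicate 1 (from -0.17 to 0.038 with 1 library left out). Mt2a, not called in any setting, lay between -0.56 and 0.052 with 1 library left out, the second without siNT replicate 2 (edgeR adjusted p = 0.923). DNA replication genes fell in 3 cases in place of 6 under upper quartile scaling, in DESeq2, and without siMt2 replicate 1 or siNT replicate 2, and in 8 with no filter, and factors of the B-MYB list rose in 4 in place of 2 under upper quartile scaling; the cause was not tested. With the replicate number as a block 51 members rose and 2 fell. The labels do not say whether the numbers pair the libraries. Deviations from group means correlated at -0.00182, -0.0600 and 0.0234 for numbers 1, 2 and 3, and not every library correlated best with its own number. So few libraries per group cannot decide whether they were paired. Depth limits the genes with siNT counts under about 20, such as Oip5, Ube2c and Pttg1, whose folds are imprecise.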

Other observations

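For the APC/C, which the checkpoint restrains, and for cohesin, genes changed in both directions. Of all genes tested 25.8% rose and 25.1% fell. Whether the shares of these small lists differ from those was not tested, so only single genes are described. Of 17 APC/C genes tested, 6 rose (35.3%) and 3 fell (17.6%) at an edgeR adjusted p under 0.05, with a median log2 fold change of 0.09. Anapc1, the largest scaffold subunit, averaged 131 ± 4.64 CPM in the libraries labelled siMt2 and 178 ± 7.99 CPM in the siNT libraries (SD, n = 3 each; log2 fold change -0.44, SE 0.06, edgeR adjusted p = 2.80e-06). Anapc2, the cullin subunit, fell too (log2 fold change -0.42, SE 0.09, edgeR adjusted p = 0.000753), and Anapc16 rose (log2 fold change 0.65, SE 0.12, edgeR adjusted p = 0.000132). Fbxo5, which encodes EMI1, an inhibitor of the APC/C, averaged 19.0 ± 2.73 CPM in the libraries labelled siMt2 and 6.46 ± 2.27 CPM in the siNT libraries (SD, n = 3 each; log2 fold change 1.51, SE 0.22, edgeR adjusted p = 9.19e-06).

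Of 14 cohesin genes, 4 rose (28.6%) and 5 fell (35.7%), with a median log2 fold change of -0.05. Pds5a, a regulator that binds the ring, averaged 208 ± 9.88 CPM in the libraries labelled siMt2 and 328 ± 5.94 CPM in the siNT libraries (SD, n = 3 each; log2 fold change -0.66, SE 0.05, edgeR adjusted p = 1.12e-09). The ring subunit gene Smc1a (log2 fold change -0.66, SE 0.06, edgeR adjusted p = 3.85e-08) and Stag1 (log2 fold change -0.83, SE 0.08, edgeR adjusted p = 7.33e-08) fell as well. Other ring subunit genes rose slightly: Smc3 (log2 fold change 0.27, SE 0.06, edgeR adjusted p = 0.000500) and Rad21 (log2 fold change 0.26, SE 0.05, edgeR adjusted p = 0.000292). Esco2, the acetyltransferase that makes cohesion lasting in S phase, averaged 14.7 ± 1.18 CPM in the libraries labelled siMt2 and 6.33 ± 1.68 CPM in the siNT libraries (SD, n = 3 each; log2 fold change 1.19, SE 0.21, edgeR adjusted p = 0.000104). In each of these named cohesin genes the libraries of the groups did not overlap.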
